A study of Mus musculus with 267 samples.

Results

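In bone marrow-derived macrophages (BMDMs) of the mouse strain C57BL/6J (C57), 20791 of 67742 regions of open chromatin (30.7%) were called open only in untreated (basal) cells and not after 24 h of interleukin-4 (IL-4). The members are the rows of the deposited C57 table whose peak condition names basal and not IL-4. That label comes from peak calls of ATAC-seq, an assay in which a transposase inserts sequencing adapters into accessible DNA, so the calls in C57 basal cells and in C57 cells after 24 h of IL-4 chose the regions. The label is a class without a score, and values on either side of a threshold were not analysed here. Of the rest of the table, 35438 regions (52.3%) were open in both conditions and 11513 (17%) only after 24 h of IL-4. Each region is 1000 bp long and centred on an ATAC-seq peak in the mm10 build.

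The study compared how macrophages of 5 inbred strains respond to IL-4. Beside C57 these were the laboratory strains BALB/cJ (BALB) and NOD/ShiLtJ (NOD) and the wild-derived strains SPRET/EiJ (SPRET) and PWK/PhJ (PWK). Bone marrow cells of each strain were cultured for 7 days in medium with macrophage colony-stimulating factor, and IL-4 was then given at 20 ng/mL for 24 h, and in C57 also for 1 and 6 h. Basal cells had the same culture without IL-4. Per the study's methods the mice were healthy females of 8 to 12 weeks and ChIP was done in biological replicates. Whether the libraries of a group came from separate mice is not given in the sources used here, so p-values measure only the spread between these libraries. The values are normalized tag counts of chromatin immunoprecipitation sequencing (ChIP-seq), scaled to 10000000 tags per library, for acetylated histone H3 lysine 27 (H3K27ac), methylated lysine 4 (H3K4me2, H3K4me3) and RNA polymerase II (Pol II). In C57 basal cells and at 24 h there were 2 libraries per histone mark and group, and 4 basal and 3 treated libraries of Pol II. The 19 C57 libraries held 11780899 to 15236793 tags for H3K27ac, 12243930 to 14209028 for H3K4me2, 12815095 to 20509497 for H3K4me3 and 7796479 to 21973750 for Pol II. H3K27ac libraries had 65.4 and 59.6% of their tags in the 67742 regions in basal cells and 43.2 and 38.2% after 24 h of IL-4, and H3K4me2 libraries 37.1 and 37.2% against 27.2 and 18.9%. The part of these differences in the H3K27ac and H3K4me2 ratios was not tested.

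Nucleosomes are displaced where transcription factors bind, which leaves DNA open to a transposase. In macrophages the lineage factors PU.1 and C/EBPβ open many such sites, and enzymes recruited there methylate and acetylate the neighbouring histones. H3K4me3 marks gene starts, H3K4me2 marks gene starts and enhancers, and H3K27ac and Pol II mark the active ones. IL-4 acts through the transcription factor STAT6, which raises genes of alternative activation and is known to repress inflammatory genes, and EGR2 and PPARγ act downstream of it.

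The samples carried the macrophage label in their chromatin. Each of 8 macrophage marker genes had a promoter region in the table, with basal H3K4me3 of 182 to 542 and H3K27ac of 190 to 882 normalized tags. None of 4 T cell markers and 2 of 6 neutrophil markers had one, with basal H3K4me3 of 2.06 to 18.4 at the latter. Basal H3K27ac at these was 16.3 (Camp) and 37.4 (S100a8), and it was 88.8 at the B cell marker Ms4a1. Of 4 dendritic cell markers, Flt3 (35.8) and Zbtb46 (286 normalized H3K4me3 tags) had a promoter region, and 2 of 4 fibroblast markers did at 15.9 and 16.7. For each gene only the region with the most basal H3K4me3 within 1 kb of a start was read. At Csf1r (receptor of macrophage colony-stimulating factor), Cd68 and Fcgr1 that region was open only in basal cells by the peak calls. It still held mean H3K27ac of 374, 427 and 158 normalized tags at 24 h, from 666, 800 and 664. Whether other regions at these promoters were called open at 24 h was not examined.

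The central 200 bp of 7 regions are shown because the values below turn on them. They are the regions with the lowest and next lowest H3K27ac ratio at 24 h (Pilra, Dlx2) and the highest ratio (Slc7a2). Others had the highest basal H3K27ac more than 1 kb from a gene start (Sirpa, Vcpkmt). The last had the most factors in basal cells (Piezo1) and the lowest ratio over the other strains (Cx3cr1). Each is named by its nearest gene, read from mm10 on the plus strand, 5′ to 3′. Capitals mark matches, on either strand, to the motifs searched below.
Pilra, chr5:137836082-137836281: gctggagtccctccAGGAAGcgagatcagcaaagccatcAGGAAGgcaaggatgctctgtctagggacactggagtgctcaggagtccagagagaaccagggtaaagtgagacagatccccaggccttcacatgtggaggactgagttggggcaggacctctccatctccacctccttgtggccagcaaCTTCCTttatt
Dlx2, chr2:71662073-71662272: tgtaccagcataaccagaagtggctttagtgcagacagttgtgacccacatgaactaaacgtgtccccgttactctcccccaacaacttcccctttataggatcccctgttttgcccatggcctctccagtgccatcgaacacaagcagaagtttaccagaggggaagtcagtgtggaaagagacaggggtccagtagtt
Slc7a2, chr8:40862366-40862565: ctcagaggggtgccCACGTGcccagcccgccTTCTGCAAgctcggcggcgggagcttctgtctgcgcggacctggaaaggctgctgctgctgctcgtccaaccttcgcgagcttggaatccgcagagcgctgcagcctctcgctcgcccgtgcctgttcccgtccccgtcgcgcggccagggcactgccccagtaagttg
Sirpa, chr2:129594712-129594911: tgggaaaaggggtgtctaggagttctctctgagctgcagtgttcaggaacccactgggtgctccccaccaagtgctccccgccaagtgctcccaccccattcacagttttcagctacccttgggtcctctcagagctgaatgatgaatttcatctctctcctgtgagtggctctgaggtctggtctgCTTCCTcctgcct
Vcpkmt, chr12:69538625-69538824: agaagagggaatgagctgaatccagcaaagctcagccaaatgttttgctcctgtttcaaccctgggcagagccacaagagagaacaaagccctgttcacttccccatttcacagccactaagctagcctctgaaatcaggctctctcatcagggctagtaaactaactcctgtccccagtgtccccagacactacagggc
Piezo1, chr8:122556071-122556270: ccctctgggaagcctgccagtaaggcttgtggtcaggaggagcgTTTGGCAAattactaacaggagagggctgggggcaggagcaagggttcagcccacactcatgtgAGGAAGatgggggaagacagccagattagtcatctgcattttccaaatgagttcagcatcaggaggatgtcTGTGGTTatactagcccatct
Cx3cr1, chr9:120068194-120068393: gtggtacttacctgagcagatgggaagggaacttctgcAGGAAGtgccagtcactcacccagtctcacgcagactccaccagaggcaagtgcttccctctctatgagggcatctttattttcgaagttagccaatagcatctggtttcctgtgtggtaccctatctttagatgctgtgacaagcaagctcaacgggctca
The Pilra window held 3 ETS cores and 1 CpG, and the Slc7a2 window, a GC-rich promoter with 20 CpG and a GC content of 69.0%, held an E-box and a C/EBP match. The Piezo1 window held a C/EBP match, an ETS core and a RUNX match. The Dlx2 and Vcpkmt windows held none of the motifs searched, which says only that these letters are not in these windows.

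Regions open only in basal cells lay mostly away from gene starts. Of the 20791, 6.71% were annotated as promoter, against 25.5% of regions open in both conditions and 14.1% of those open only at 24 h. Introns held 49.2% (38.3 and 42.7% in the other sets), intergenic DNA 38.7% (29.7 and 27.6%) and exons 1.73% (2.25 and 9.22%). The median distance to the nearest gene start was 13982 bp, against 6555 bp for regions open in both and 8041 bp for those open only at 24 h. Within 10 kb of a gene start lay 42.6% of the members, and within 100 kb 89.9%. The centre of a region called at 24 h lay within 1000 bp of 17.1% of the members and within 10000 bp of 65.7%. The tag windows of the former overlap those of their neighbours.

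The central 200 bp of the members were poorer in G and C than those of the other regions. The median GC content was 47.0% (quartiles 43.5 and 52.0%), against 54.5% in regions open in both and 56.5% in regions open only at 24 h. No CpG was present in 15.6% of the members, against 5.73 and 5.77%. When all regions were split into 5 equal classes by GC content, the share open only in basal cells was 67.7% in the class poorest in GC (24.5 to 46.5%), then 36.7, 23.6 and 14.6%, and 7.72% in the richest (62.0 to 88.5%). ATAC-seq libraries can differ in how they recover DNA by base composition. The part of that in the peak calls was not tested, because ATAC-seq libraries were not analysed here.

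Motifs were searched by their letters on both strands of the central 200 bp. The ETS core AGGAAG, which binds PU.1 and its relatives, was in 49.8% of the members, 43.7% of regions open in both and 33.1% of regions open only at 24 h, and the longer PU.1 motif GAGGAAGT, which contains that core, was in 10.3, 8.75 and 4.0%. The C/EBP motif TTGCNNAA was in 16.6, 11 and 6.34%, and the composite of PU.1 and an interferon regulatory factor, GGAA and GAAA with 2 bases between them, in 5.38, 3.4 and 1.58%. The AP-1 motif TGANTCA was in 16.2, 18.2 and 14.2%. The STAT motif with the 4-base gap preferred by STAT6, TTCNNNNGAA, was in 5.06, 4.54 and 4.72%. G- and C-rich motifs were less common in the members, with the EGR motif GTGGGCG in 1.51, 5.28 and 4.86% and the SP/KLF motif GGGCGG in 7.2% of members and 25.6% of regions open in both. More than 1 kb from a gene start the shares of members and of regions open in both came closer for the ETS core (51.8 and 51.2%) and PU.1 (10.9 and 11.2%), and stayed apart for C/EBP (17.5 and 13.7%), AP-1 (17.4 and 24.5%) and SP/KLF (4.06 and 9.92%). A match is a description of the letters and not a bound site.

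In basal cells the members held less of each mark than regions open in both conditions. The median over members of the mean basal H3K27ac was 17.7 normalized tags (quartiles 4.5 and 73.6), against 47.2 in regions open in both and 3.8 in those open only at 24 h. At 24 h it was 14.7, 36.2 and 6.58 in the same order. The library medians over members were 16.28 and 17.11 in basal cells and 13.58 and 15.1 at 24 h, so the groups did not overlap, but the median log2 ratio was -0.27 for the members and -0.28 for all regions. The members' median ratio was thus close to that of the whole table. In these bulk cultures fewer cells with a mark at a region and less of the mark per cell cannot be told apart.

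The other marks were low or moved as the whole table did. Pol II had library medians over members of 10.61, 9.63, 9.11 and 8.1 in basal cells and 9.34, 7.74 and 7.7 at 24 h, and these overlapped. Its median log2 ratio was -0.12 for members and -0.05 for all regions. H3K4me2 had medians of 35.94 and 35.19 in basal cells and 28.65 and 19.03 at 24 h, with a log2 ratio of -0.61 for members and -0.66 for all regions, and here the 24 h libraries differed from each other by more than the first of them did from basal. H3K4me3 was near its floor, at 2.18 and 2.44 against 3.67 and 3.9, with log2 ratios of 0.25 and 0.12. Scaling each library by its median ratio to the others moved the median of all regions by more than 0.1 on the log2 scale for H3K27ac and H3K4me2, and the members' medians were then 0.04 for H3K27ac, -0.06 for Pol II, 0.03 for H3K4me2 and 0.30 for H3K4me3.

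**Figure D1:**
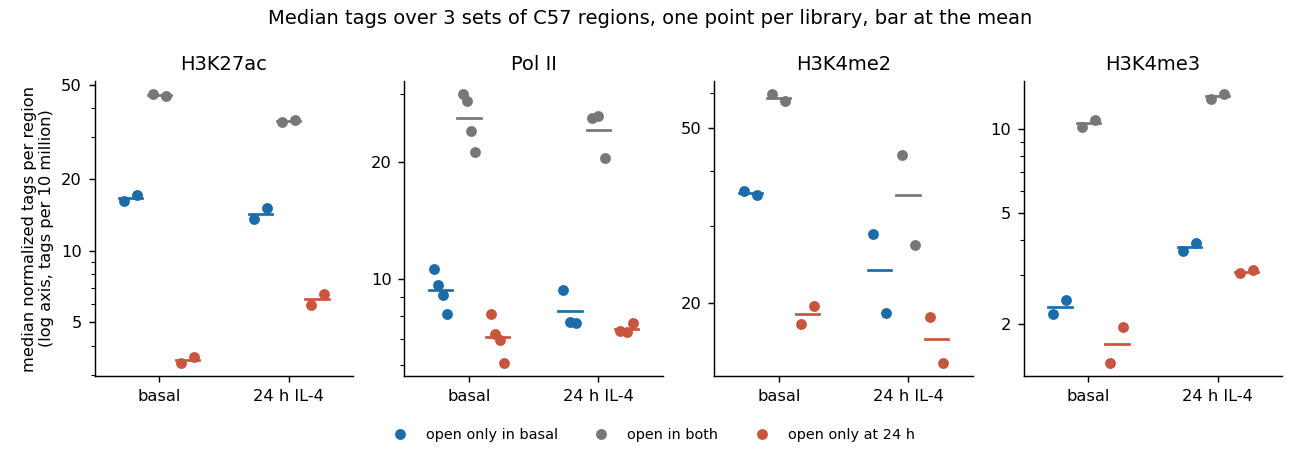
Median normalized tags per region (log axis, per 10000000 tags) in each C57 library, one panel per mark, for regions open only in basal cells (blue), open in both (grey) and open only at 24 h (red), with a bar at the mean of the libraries. The H3K27ac medians of regions open only in basal cells were 16.28 and 17.11 in basal cells and 13.58 and 15.1 at 24 h, below those of regions open in both at either time.

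Levels differed by the kind of region. Promoter members, 1395 in all, had a median H3K27ac of 83.6 in basal cells and 51.0 normalized tags at 24 h (log2 -0.57), and an H3K4me3 of 213 and 174. The 10222 members in introns had an H3K27ac of 18.2 and 15, with a basal H3K4me3 of 2.43. The 8053 intergenic members had 14.3 and 12.5, with a basal H3K4me3 of 1.71.

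The fold rule used here asks for a ratio of 2.5 or more between the group means after 1 tag was added to each, and for a mean of 16 normalized tags or more in one group, or 8 for Pol II. The floor was reached by 11607 members (55.8%) for H3K27ac, 12153 (58.5%) for Pol II, 15868 (76.3%) for H3K4me2 and 5172 (24.9%) for H3K4me3, and 6 members had no H3K27ac tag in any library. By this rule 2034 members (9.78%) were lower at 24 h in H3K27ac, with a background of 7.55% over all regions, and 538 (2.59%) were higher, with a background of 3.46%. For Pol II 515 (2.48%, background 1.66%) were lower and 234 (1.13%, background 1.57%) higher. For H3K4me2 the counts were 325 lower (1.56%, background 1.27%) and 45 higher (0.216%, background 0.387%), and for H3K4me3 53 lower (0.255%, background 0.179%) and 99 higher (0.476%, background 0.639%). H3K27ac and Pol II together were lower at 371 members (1.78%, background 1.14%) and higher at 115 (0.553%, background 0.936%). Since the same contrast chose the members, nothing is read from these shares. Replicates did not overlap at 1891 of the 2034 members lower in H3K27ac and at 501 of the 538 higher, and over all regions at 4826 of 5117 and 2205 of 2344. Of the 4 marks none was lower at 18404 members (88.5%, against 91% of all regions), 1 at 1915 (9.21 and 7.54%), 2 at 418 (2.01 and 1.32%), 3 at 40 (0.192 and 0.118%) and 4 at 14 (0.0673 and 0.0354%). In the other direction 1 mark was higher at 535 members (2.57 and 3.13%), 2 at 147 (0.707 and 1.06%), 3 at 25 (0.12 and 0.239%) and 4 at 3 (0.0144 and 0.0207%).

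The split between lower and higher depended on the scaling. Median-ratio scaling gave 951 lower and 860 higher for H3K27ac (52.5% of calls lower, against 79.1%) and 4 lower and 265 higher for H3K4me2 (1.49%, against 87.8%). For Pol II they were 428 and 264 (61.8%, against 68.8%), and for H3K4me3 45 and 119 (27.4%, against 34.9%). Single libraries also moved the smaller counts. For H3K4me2 the lower count was 3912 when 24 h replicate 1 was left out, and 754 and 607 when basal replicates 1 and 2 were. The higher count was 94 without basal replicate 1 and 103 without 24 h replicate 2. For Pol II the higher count was 391 without basal replicate 1 and 360 without 24 h replicate 3. For H3K4me3 the lower count was 80 and 89 without basal replicates 1 and 2 and 108 and 118 without 24 h replicates 1 and 2, and the higher count was 154 and 186 without the basal replicates.

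The values of single regions follow as a description, with those of the lowest ratios first. The Pilra promoter region (chr5:137835682-137836682; an inhibitory immunoglobulin-like receptor of myeloid cells) had 54.27 and 48.49 normalized H3K27ac tags in basal cells and 3.4 and 1.97 at 24 h, a log2 ratio of -3.83. Its Pol II tags were 45.55, 24.07, 13.4 and 5.06 in basal cells and 4.0, 2.28 and 3.85 at 24 h. Each basal library lay above each treated one in both. Nearby, the promoter of Pilrb1 (chr5:137857451-137858451), an activating receptor of the same family, had Pol II tags of 28.7, 16.05, 18.76 and 11.14 against 0.67, 2.73 and 0.0 (log2 -3.2). Its H3K27ac was 61.06 and 83.43 against 7.64 and 11.16 (log2 -2.82), again without overlap.

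A region 115.4 kb from Dlx2 (chr2:71661673-71662673), a homeobox gene of the forebrain, lay in an intron of a noncoding transcript. H3K27ac there was 282.91 and 540.49 in basal cells and 16.13 and 44.63 at 24 h (log2 -3.72). Pol II was 13.1, 31.3, 95.93 and 72.91 against 4.0, 2.28 and 7.7 (log2 -3.26), so the groups did not overlap although the basal libraries differed widely. In an intron of Sh3pxd2a (chr19:47446467-47447467), which encodes the podosome scaffold Tks5, H3K27ac was 269.34 and 367.93 against 26.31 and 24.94 (log2 -3.59). The region had no basal peak of the 5 factors mapped. Between these ranked an intergenic region 8.9 kb from Pot1b, a telomere protein (chr17:55720997-55721997), at 164.86 and 267.39 against 21.22 and 11.16 (log2 -3.66), and next came one near 6030408B16Rik (chr15:101318937-101319937), at 26.46 and 48.49 against 2.55 and 2.63 (log2 -3.42). In an intron of Pou2f2 (chr7:25130245-25131245, 1.7 kb from the start), which encodes the octamer-binding factor Oct2, all 4 marks met the fold rule. H3K27ac was 155.36 and 98.4 against 14.43 and 9.19 (log2 -3.32), H3K4me2 165.8 and 150.61 against 47.23 and 27.08 (log2 -2.06), and H3K4me3 180.52 and 139.94 against 26.28 and 14.83 (log2 -2.9). Pol II was 32.45, 46.54, 34.84 and 38.48 against 4.67, 10.92 and 2.57 (log2 -2.47), with close replicates and no overlap.

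Further named regions lay at or near receptor genes. The promoter of Cx3cr1, the fractalkine receptor of monocytes and macrophages (chr9:120067794-120068794), had H3K27ac of 62.42 and 189.67 against 4.24 and 21 (log2 -3.22). Its Pol II was 16.22, 25.68, 53.59 and 77.97 against 1.33, 1.82 and 10.26 (log2 -3.02). Its H3K4me3 was 26.2 and 57.05 against 6.11 and 9.36 (log2 -2.29), and in each mark the lowest basal library exceeded the highest treated one. The formyl peptide receptors Fpr1 and Fpr2 lie next to each other on chromosome 17. A region 12.1 kb from Fpr1 (chr17:17871384-17872384) had H3K27ac of 132.97 and 136.91 against 23.77 and 24.94 (log2 -2.42), and Pol II of 59.9, 32.1, 12.86 and 14.18 against 4.67, 4.55 and 1.28 (log2 -2.77). At the start of Fpr2 (chr17:17887513-17888513) H3K4me3 was 30.57 and 4.88 against 4.28 and 0.78 (log2 -2.41). The basal libraries there differed so much that the log2 ratio ranged from -3.4 to -0.74 when 1 library was left out. Near Nr4a1, an orphan nuclear receptor of patrolling monocytes (chr15:101247650-101248650, 6.1 kb), H3K27ac was 44.1 and 83.43 against 5.94 and 12.47 (log2 -2.67), H3K4me2 was 53.9 and 93.6 against 9.29 and 22.69 (log2 -2.14), and neither overlapped.

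**Figure D2:**
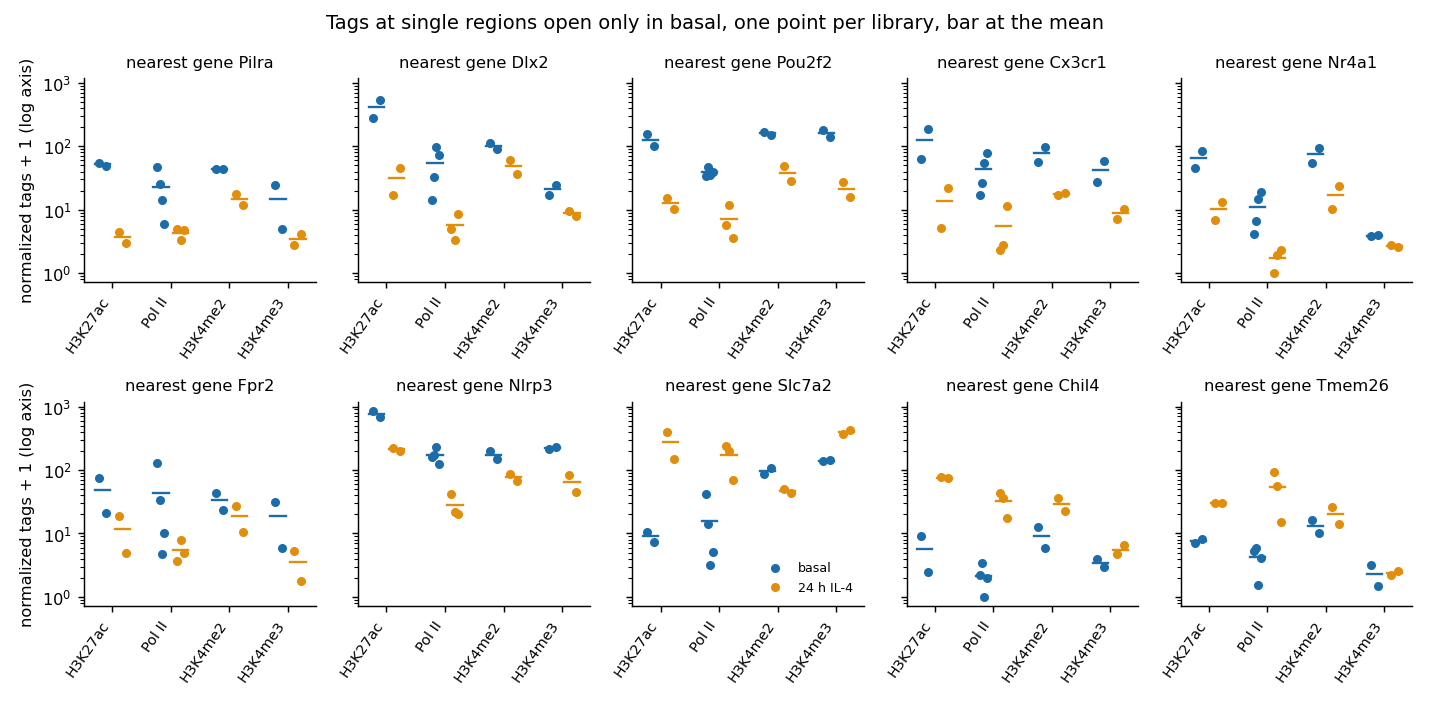
Normalized tags plus 1 (log axis) of 4 marks at 10 regions open only in basal cells, each named by its nearest gene, with 1 point per C57 library in basal cells (blue) and at 24 h of IL-4 (orange) and a bar at the mean. At the Pilra, Dlx2, Pou2f2, Cx3cr1, Nr4a1, Fpr2 and Nlrp3 regions the H3K27ac means were lower at 24 h, and at the Slc7a2, Chil4 and Tmem26 regions they were higher.

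Some regions without an ATAC-seq call at 24 h had more tags there than in basal cells, and several lie at IL-4 response genes. The promoter of Slc7a2 (chr8:40861966-40862966), a transporter of arginine, had H3K27ac of 9.5 and 6.42 in basal cells and 395.56 and 148.98 at 24 h (log2 4.93). Its Pol II was 40.56, 12.84, 2.14 and 4.05 against 241.43, 194.78 and 69.26 (log2 3.41), and its H3K4me3 138.3 and 140.91 against 368.47 and 428.4 (log2 1.51). Only H3K4me2 there was lower, at 85.76 and 104.86 against 48.77 and 41.72. Members of a ribonuclease family expressed in myeloid cells stood out on chromosome 14. Near Ang6 (chr14:43983566-43984566) H3K27ac was 0.0 and 1.43 against 38.2 and 57.1 (log2 4.83). At 15.6 kb from Ear14 (chr14:51218837-51219837) H3K27ac was 4.75 and 17.83 against 225.79 and 255.3 (log2 4.3), and Pol II 1.87, 2.41, 1.07 and 3.04 against 46.02, 37.32 and 25.65 (log2 3.59). At the Rnase2a promoter (chr14:51255783-51256783) Pol II was 0.0, 0.0, 0.54 and 1.01 against 52.69, 3.64 and 32.07 (log2 4.46). These genes have near-identical relatives, so the tags may be split among copies and the values are uncertain.

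Chil4, a chitinase-like protein typical of alternatively activated mouse macrophages, had a region 2.2 kb away (chr3:106221251-106222251). Pol II there was 1.25, 2.41, 0.0 and 1.01 against 42.68, 35.5 and 16.67 (log2 3.91), and H3K27ac 8.14 and 1.43 against 75.55 and 72.85 (log2 3.7). Groups did not overlap in either. In an intron of Tmem26 (chr10:68731932-68732932) Pol II was 4.37, 4.81, 0.54 and 3.04 against 90.7, 55.52 and 14.11 (log2 3.7). The promoter of Itgax, which encodes the integrin CD11c (chr7:128128929-128129929), had H3K4me3 of 2.18 and 5.85 against 64.16 and 126.41 (log2 4.26), with H3K27ac of 75.31 and 60.61 against 269.93 and 264.49 (log2 1.96). An intron of Smg5 (chr3:88338056-88339056) and a region nearest to Lrp12 (chr15:40014287-40015287) also had more H3K4me3, at 5.1 and 9.26 against 104.49 and 69.45 and at 2.18 and 1.95 against 28.11 and 24.19. Such regions are open only in basal cells by the peak call alone, and in these marks they were higher at 24 h.

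A linear model across all regions (limma) called few members without a replicate block, and many more in H3K27ac and H3K4me3 with one. At an adjusted p (Benjamini-Hochberg) below 0.05 the model without a block called 0 members lower and 0 higher in H3K27ac. The same held in H3K4me3, with a background of 0.0% in each direction for both. With the replicate number as a block it called 5644 lower and 1391 higher in H3K27ac (20021 and 5736 over all regions). In H3K4me3 these were 1359 and 742 (8845 and 2681). The sources used here do not say whether libraries of the same number were prepared together. Without the block, unadjusted p-values were below 0.05 at 3137 members lower and 1121 higher in H3K27ac, and at 1093 and 1689 in H3K4me3. Over all 67742 regions they were so at 14904 in H3K27ac and 13232 in H3K4me3, both directions together. On whole tags edgeR called 3 members lower and 31 higher in H3K27ac (6 and 163 over all regions) and 12 and 24 in H3K4me3 (36 and 89). DESeq2 called 252 and 323 (631 and 1472), and 52 and 40 (139 and 143). For Pol II limma without a block called 23 members lower (background 0.096%) and 29 higher (0.223%). With the replicate number as a block it called 100 lower and 50 higher (267 and 281 over all regions). For H3K4me2 the counts without the block were 18 lower (background 0.0576%) and 13 higher (0.179%). They were 61 and 28 with it (127 and 249 over all regions). The counts without the block rest on single libraries. When 24 h replicate 1 or 24 h replicate 2 was left out, no Pol II call remained. Leaving out a basal Pol II library gave 98 and 81 (replicate 1), 3 and 4 (replicate 2), 1 and 4 (replicate 3) or 2 and 3 (replicate 4). The H3K4me2 calls became 9094 and 104 when 24 h replicate 1 was left out and 0 and 0 when 24 h replicate 2 was. Leaving out a basal library gave 0 and 8 (replicate 1) or 0 and 13 (replicate 2).

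The members with the smallest limma p in Pol II were at Ear14 (log2 3.6, SE 0.47, adjusted p 0.00559), Ap2m1, Nlrp3 and Chil4 (log2 3.94, SE 0.55, adjusted p 0.00791). In an intron of Ap2m1, a subunit of the clathrin adaptor (chr16:20537013-20538013), Pol II was 42.43, 36.91, 65.38 and 43.54 in basal cells and 248.1, 372.72 and 203.94 at 24 h (limma log2 2.51, SE 0.34, adjusted p 0.00658). In an intron of Nlrp3, the sensor of the inflammasome (chr11:59543001-59544001, 0.7 kb from the start), Pol II was 159.73, 169.32, 230.99 and 123.54 against 40.68, 20.93 and 19.24 (limma log2 -2.66, SE 0.36, adjusted p 0.00658). Groups were far apart at both. H3K27ac at Nlrp3 was 837.18 and 673.83 against 222.39 and 199.52 (log2 -1.84), and H3K4me3 209.64 and 226.72 against 83.1 and 43.7. In H3K4me2 the Pou2f2 region (adjusted p 0.00107), the Nr4a1 region (0.00275) and a region 64.8 kb from Sypl (0.00376, with 4.08 and 12.67 against 44.13 and 38.06 normalized tags) led, beside a repeat-rich region at Gm10800 whose counts are uncertain. With 1 library left out, the adjusted p of each of the 4 Pol II regions reached 0.101 to 0.105, without 24 h replicate 1 or 2, and those of Pou2f2, Nr4a1 and Sypl reached 0.661, 0.644 and 0.661. The Nr4a1 call was also lost with median-ratio scaling (adjusted p 0.178), edgeR (0.162) and DESeq2 (0.995).

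The members with the most H3K27ac in basal cells are described first for those more than 1 kb from a gene start. A region in an intron of Sirpa, the receptor of the self signal CD47 (chr2:129594312-129595312), lay only 1.2 kb from the start. Its basal H3K4me3 was 913.53 and 658.72. Its H3K27ac was 1592.27 and 1023.23 in basal cells and 838.65 and 546.05 at 24 h (log2 -0.92). A region 44.3 kb from Vcpkmt, a lysine methyltransferase (chr12:69538225-69539225), had 1245.6 and 1339.11 against 542.4 and 618.9 (log2 -1.15). Near Ankdd1a (chr9:65541849-65542849) it was 1429.45 and 1061.73 against 703.68 and 517.17. These 3 did not overlap between groups, and all stayed far above the median level of the members. At 39.7 kb from Ccr1, a chemokine receptor (chr9:123928489-123929489), it was 1292.41 and 1057.46 against 860.72 and 551.95. Within 1 kb of a start, the promoter of Flcn, the folliculin gene, had 1762.56 and 1080.99 against 1209.59 and 471.88 and an intron of Lgals3, the galectin-3 gene, 1759.17 and 1013.96 against 1100.93 and 632.02, where groups overlapped. The repeat-rich Gm10800 region exceeded all of these, with uncertain counts. At the start of Spi1, the gene of PU.1 (chr2:91081824-91082824), it was 1400.28 and 1187.94 against 580.6 and 559.17 (log2 -1.18).

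Genes near the members were grouped by function, each region counted for its nearest gene start. In all, 8758 genes had at least 1 member and 4196 exactly 1. Lpp had 28, Pde4d 25, Klf6 24, Zeb2 22 and Runx1, Zfp36l2 and 3 other genes 20 each, beside 27 at the repeated locus Sfi1. Of those at Lpp, Pde4d, Klf6, Zeb2, Runx1 and Zfp36l2, 8, 0, 0, 0, 4 and 8 were lower in H3K27ac by the fold rule, and 2, 0, 0, 0, 1 and 5 after median-ratio scaling. The share of lower members was larger at some other genes, with 9 of 14 at Maf, a transcription factor of tissue macrophages, 8 of 9 at B4galt6, 8 of 15 at Pid1 and 6 of 6 at Nfkbiz (an inhibitor-like NF-kB protein). After median-ratio scaling these became 7, 6, 6 and 3. The higher ones included 4 of 4 at Socs1 (a suppressor of cytokine signalling), 4 of 4 at Hook1, 5 of 18 at Dusp4 and 3 of 4 at Bhlhe40. At Sfi1 10 of 27 were higher, and these counts are uncertain.

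Chemotactic receptors had the highest share of lower members among 9 gene lists. Of 35 members at 12 of 16 receptor genes, 14 (40.0%) were lower in H3K27ac and 1 was higher, with 10 lower (28.6%, against 2.48% of all members) and 0 higher in Pol II and a median H3K27ac log2 ratio of -0.96. They included 3 of 3 members at Fpr2, 3 of 4 at Ccr3, 2 of 4 at Ccr1, 2 of 3 each at Ccr2 and Fpr1, and the 1 at Cx3cr1. Phagocytic and surface receptors had 117 members at 43 of 49 genes, with 28 lower (23.9%) and 1 higher in H3K27ac, 22 lower (18.8%) and 3 higher in Pol II and a median of -0.76. Among them were 5 of 5 members at Clec4d, a C-type lectin for mycobacterial glycolipid, and 3 of 4 at Cd300e. The 5 members at Csf1r had none. Over all members 9.78% were lower, as above, and the median was -0.27. The fold rule needs a minimum level, and the lists differed in it. Median basal H3K27ac was 59.9 normalized tags in chemotactic receptors and 79.9 in surface receptors, against 17.7 over all members. It was 53.5 in the Toll-like receptor and NF-kB list and 69.9 in the interferon list below. The part of this level in the shares was not tested, nor were other regions of the same genes. Under median-ratio scaling 8 were lower and 2 higher for chemotactic receptors and 18 lower and 3 higher for surface receptors, where all members gave 951 and 860. The Pol II counts were then 10 and 0, and 17 and 3.

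The Toll-like receptor and NF-kB pathway, which senses microbial products, had 122 members at 35 of 43 genes. Of these 28 (23%) were lower in H3K27ac and 4 higher, with a median of -0.50, including 6 of 6 at Nfkbiz, 4 of 4 at Cd14 (the lipopolysaccharide co-receptor), 3 of 6 at Irak2, 3 of 4 at Irak3 and 2 of 2 at Nlrp3. None of the 11 at Tlr4 was lower and 1 was higher. The cytokines and chemokines themselves had 68 members at 26 of 35 genes, of which 9 (13.2%) were lower and 3 higher, with a median of -0.08. Those lower included 2 of 3 at Cxcl2, 2 of 2 at Il18 and 1 at Ccl3, where a region (chr11:83647940-83648940) had H3K27ac of 622.8 and 515.54 against 176.56 and 156.86 (log2 -1.77). Under median-ratio scaling the pathway list had 16 lower and 6 higher, and the cytokine list 5 and 4 with a median of 0.18, so its sign turned.

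The IL-4 response list was the one with more higher than lower members. Of 114 at 35 of 40 genes, 19 (16.7%) were higher in H3K27ac and 3 (2.63%) lower, with 22 higher and 1 lower in Pol II and a median H3K27ac log2 ratio of 0.27. This list holds genes known to respond to IL-4, was chosen with earlier results of these data known, and is no independent evidence of its direction. The higher members included 3 of 4 at Msx3, 2 of 3 at Batf3, and the only members at Slc7a2, Chil4, Mgl2 and Arg1, the arginase of alternatively activated macrophages (log2 1.60). The 3 members at Pparg had neither call, 1 of 17 at Klf4 was lower, 1 of 7 at Egr2 was higher, and the 1 at Stat6 itself was lower (log2 -2.44). At Mrc1, the mannose receptor, a member had H3K27ac of 253.05 and 233.17 against 90.82 and 112.88 (log2 -1.25). With median-ratio scaling the list had 24 higher and 3 lower.

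The other lists lay nearer to all members. Lineage and AP-1 factors had 191 members, 19 lower (9.95%) and 8 higher in H3K27ac, of which 9 of the lower were at Maf and 3 at Nr4a1. Interferon response genes had 78, with 8 lower (10.3%) and 6 higher, the higher including 4 of 4 at Socs1. Adhesion, matrix and migration genes had 115, with 14 lower (12.2%) and 4 higher, including 4 of 6 at Itga4 (an integrin chain) and 3 of 3 at F13a1, a coagulation factor of macrophages. Cell cycle genes had 50, with 4 lower (8.0%) and 0 higher. After median-ratio scaling the lower and higher counts were 12 and 11, 4 and 7, 4 and 6, and 0 and 0, so interferon and adhesion genes turned to more higher than lower.

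Peaks of 5 transcription factors in C57 cells were laid over the central 200 bp, with an overlap of 1 bp. One list per factor and time was deposited, from replicates combined by the authors, so the shares have no replicate error and the exact 95% binomial intervals cover counting error only. PU.1 had a peak at 58.5% of the members in basal cells (57.8 to 59.2%) and at 60.8% after 24 h of IL-4, when the ATAC-seq call was gone. Both lists held a PU.1 peak at 54.1% of members, the basal list alone at 4.34% and the 24 h list alone at 6.7%. In regions open in both the shares were 65.9 and 67.9%, and in regions open only at 24 h 20.0 and 24.3%. Over all regions both lists held a PU.1 peak at 51.5%, the basal list alone at 4.34% and the 24 h list alone at 6.87%. Among the members the PU.1 peak was more often kept than lost, at shares near those of the whole table.

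The other factors had longer lists at 24 h and covered more of the members. C/EBPβ covered 21.6% in basal cells and 37.7% at 24 h, with lists of 18043 and 37499 peaks, and PPARγ 6.18 and 29.9%, with 7627 and 39088. EGR2 covered 3.54% in basal cells, 6.6% at 1 h, 6.1% at 6 h and 18.3% at 24 h, against 16.3% in basal cells and 46.7% at 24 h in regions open in both. STAT6, the factor that IL-4 activates, covered 33.9% in basal cells, 27.4% at 1 h, 26.8% at 6 h and 40.9% at 24 h, with 30589, 24376, 23884 and 39537 peaks. At least 1 of the 5 factors covered 67.1% in basal cells and 77.6% at 24 h (77.2 and 87.8% of regions open in both). When the 24 h lists were cut to the length of the basal ones by score, the shares at 24 h were 21.1% for C/EBPβ, 3.62% for EGR2, 33.2% for STAT6 and 6.24% for PPARγ, and 67.2% for any factor, so at equal length the shares were near those of the basal lists.

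**Figure D3:**
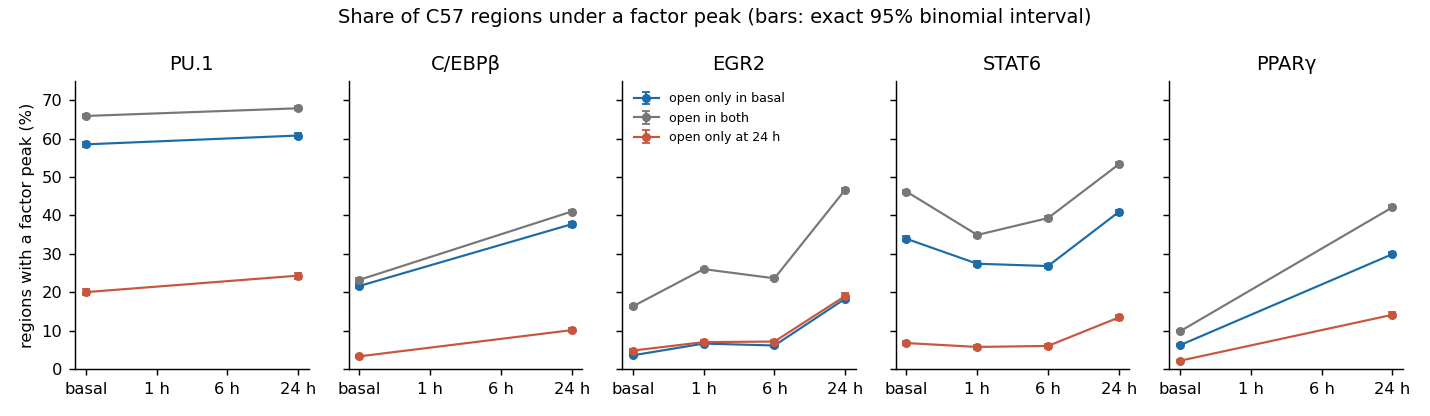
Percent of regions whose central 200 bp lie under a peak of each of 5 factors by time of IL-4, for regions open only in basal cells (blue), open in both (grey) and open only at 24 h (red), with exact 95% binomial intervals. PU.1 covered 58.5% of regions open only in basal cells before and 60.8% after 24 h of IL-4, and EGR2 3.54 and 18.3%.

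The number of factors went with the level of acetylation. No basal factor peak lay on 32.9% of the members, 1 on 28.8%, 2 on 22.7%, 3 on 13.1%, 4 on 2.39% and all 5 on 0.135% (28 regions). The median basal H3K27ac in that order was 5.23, 12.9, 39.8, 66.2, 120 and 263 normalized tags. The share lower in H3K27ac by the fold rule, which needs a minimum level, was 3.67, 6.29, 16.4, 19.2, 21.7 and 3.57%. At 24 h all 5 factors covered 1126 members (5.42%). The member with the most H3K27ac among the 28 lay 4.8 kb from Piezo1, a mechanically gated ion channel (chr8:122555671-122556671). It had 1066.49 and 779.37 in basal cells and 616.25 and 495.51 at 24 h (log2 -0.73), and peaks of all 5 factors at both times.

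The state of a factor's peak and H3K27ac went together in part of the members. Where STAT6 had a basal peak, 20.4% of members without and 19.2% with a 24 h peak were lower in H3K27ac by the fold rule, against 4.22% where only the 24 h list had a peak and 5.01% where neither did. Where only the 24 h list held STAT6, 9.37% were higher. Members with PU.1 in the basal list only (11.4%) or in both lists (13.4%) were lower more often than those with PU.1 in the 24 h list only (3.88%) or in neither (5.02%). C/EBPβ in the basal list only went with 24.1% lower (38 of 158 regions) and in both lists with 14.8%. By motif, 12.2% of members with an ETS core and 7.4% without were lower, and 5.41% with the STAT motif and 10.0% without. Basal H3K27ac is higher where a factor is bound, and the part of that level in these shares was not tested. These shares, and those by number of factors above, were computed for the members alone. Whether they differ from those of other regions with the same peaks or motifs was not tested.

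The time course had its own table of regions with ATAC-seq calls at 0, 1, 6 and 24 h, and 20317 members (97.7%) had a region in it with its centre within 100 bp. The calls of open chromatin at these regions differed between the times, and the ATAC-seq signal under the calls was not analysed here. Of the matched members 61.2% were also called open after 1 h of IL-4 and 34.1% after 6 h. In detail 6613 (32.5%) were called in basal cells alone, 6734 (33.1%) also at 1 h alone, 1247 (6.14%) also at 6 h alone and 5633 (27.7%) at 1 and 6 h. At 24 h this table called 90 members (0.443%) open, which the C57 table did not. Levels in basal cells differed between these groups. Median basal H3K27ac was 11.2 normalized tags in the members called in basal cells alone, 18.2 with a call at 1 h, 16.6 with one at 6 h and 26.4 with both, and 82.0 in the 90 called at 24 h. A basal PU.1 peak was on 45.4, 61.8, 54.6 and 72.0% of the first 4 groups and 57.8% of the last, and a basal STAT6 peak on 19.4, 38.3, 25.3 and 48.3%, and 33.3%.

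The H3K27ac ratio of the members was lowest at 1 h. The library medians were 16.28 and 17.11 in basal cells, 13.14 and 8.95 at 1 h, 14.63 and 12.78 at 6 h, and 12.73 and 15.1 at 24 h, so no treated library reached the basal ones. The second 1 h library stood apart, with 29050468 tags of which 20.5% lay in regions, against 44.0% in the first. The median log2 ratio to basal was -0.59 at 1 h, -0.24 at 6 h and -0.27 at 24 h for members, and -0.63, -0.14 and -0.22 for all regions of that table. Without 1 h replicate 2 it was -0.39 at 1 h. With median-ratio scaling the members' values were 0.13, -0.05 and 0.01, so the direction at 1 and 24 h turned.

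In the model of the time course, whose 3 contrasts share the basal libraries, H3K27ac fell at 1955 members at 1 h (background 8.36%) and rose at 210 (1.37%; limma, adjusted p below 0.05). At 6 h it fell at 821 (background 2.46%) and rose at 383 (2.67%), and at 24 h at 108 (0.327%) and 108 (1.13%). After median-ratio scaling the falls and rises numbered 197 and 350 at 1 h, 490 and 496 at 6 h and 69 and 198 at 24 h. Single libraries moved these counts widely. The falls at 1 h numbered 30 without basal replicate 2, 1040 without basal replicate 1, 4448 without 1 h replicate 1, and 413 and 421 without 6 h replicates 1 and 2. The falls at 6 h numbered 20 and 30 without 6 h replicates 1 and 2, 78 without basal replicate 2, and 1492 and 1414 without 1 h replicates 1 and 2. The falls at 24 h numbered 13 without basal replicate 2, 671 and 625 without 1 h replicates 1 and 2, 14 and 13 without 6 h replicates 1 and 2, and 36 and 49 without 24 h replicates 1 and 2. The rises ranged from 15 to 391 at 1 h, 19 to 632 at 6 h and 36 to 254 at 24 h, where the lowest came without basal replicate 2, 6 h replicate 1 and 24 h replicate 2 and the highest without 1 h replicate 2 at 1 and 6 h and 1 h replicate 1 at 24 h. At the Pilra promoter H3K27ac was 8.5 and 8.61 at 1 h and 6.93 and 5.48 at 6 h, already far under the 54.27 and 48.49 of basal cells. At the Dlx2 region it was 17.01 and 55.77 at 1 h and 14.63 and 17.04 at 6 h. At Slc7a2 it was 439.85 and 29.95 at 1 h and 477.46 and 410.77 at 6 h, and near Ear14 67.25 and 49.91 and then 115.51 and 185.61, so the higher levels there were already seen before 24 h.

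**Figure D4:**
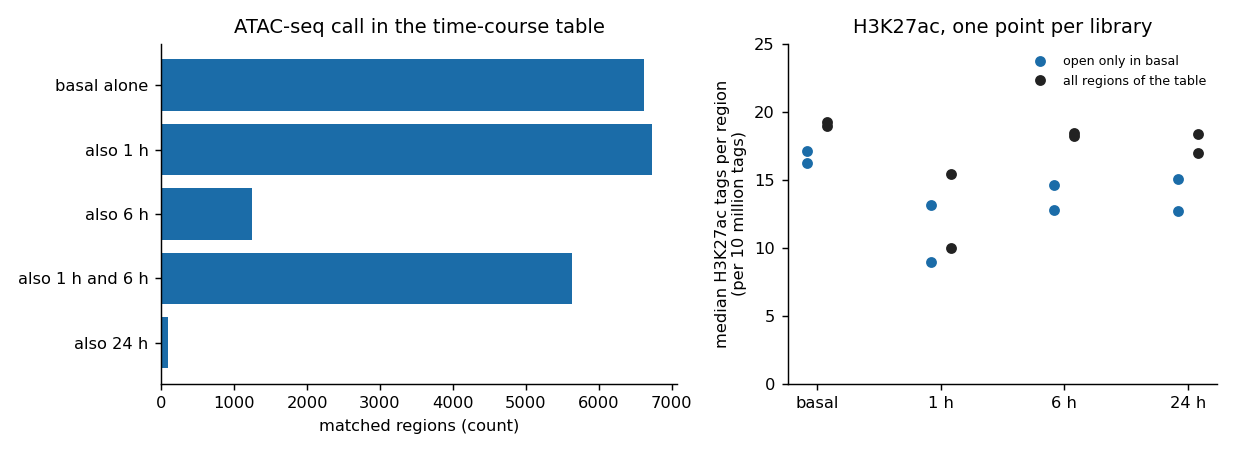
Left, number of members matched in the time-course table by the times at which that table also called them open, with 6613 called in basal cells alone. Right, median H3K27ac (normalized tags per region) in each C57 library at 0, 1, 6 and 24 h of IL-4 for the members and for all regions, where each treated library of the members (8.95 to 15.1) lay below the basal ones (16.28 and 17.11).

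The 4 other strains were independent of the calls that chose the members. A region with its centre within 100 bp was found in the strain's own table for 13166 members in NOD (63.3%), 10707 in BALB (51.5%), 10392 in PWK (50.0%) and 7938 in SPRET (38.2%). All 4 strains had one for 20.2% of the members, against 57.9% of the C57 regions open in both, and no strain had one for 21.4%. Most matched members were open at both times in the other strain, as were most regions of each strain's table. In BALB 12.4% of the matched members were open only in basal cells, 63.9% in both and 23.7% only at 24 h. The shares in that order were 26.8, 65 and 8.15% in NOD and 27.5, 58.4 and 14.1% in PWK. SPRET had 20.9, 53.5 and 25.6%. Of all regions of BALB, NOD, PWK and SPRET 11.2, 25.6, 19.1 and 18.2% were open only in basal cells. Open at both times were 66.0, 63.0, 62.3 and 57.5%, and only at 24 h 22.8, 11.4, 18.6 and 24.3%. Only 19 members (0.0914%) were open only in basal cells in all 4, and 64.9% were so in none. Of the C57 regions open in both, 0.0451% were so in all 4 and 79.7% in none. Members without a match had less H3K27ac in C57 basal cells, with medians of 7.25 (BALB) to 14.8 (SPRET), than those open in both conditions in the other strain (27.8 in SPRET to 58.9 in BALB).

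In each of the 4 strains the matched members had a lower H3K27ac ratio at 24 h than the whole table. The median log2 ratio of the members was -0.41 (BALB), -0.31 (NOD), -0.28 (PWK) and -0.14 (SPRET), against -0.30, -0.20, -0.18 and -0.09 for all regions. The difference was -0.09 on average (SD 0.03, n = 4 strains) and below 0 in 4 of 4, with a two-sided exact permutation p of 0.125 over the signs of the strains, the smallest that 4 strains allow. Against the C57 regions open in both, whose medians were -0.31, -0.26, -0.22 and -0.13, the average difference was -0.05 (SD 0.04). These differences are small, and how they moved with 1 library left out is not given here. Leaving out 1 library did move the members' median itself. The members' median was -0.72 in BALB without 24 h replicate 1 and -0.12 without 24 h replicate 2, -0.17 in PWK without 24 h replicate 2, and in SPRET -0.22 and -0.02 without 24 h replicates 1 and 2. Of the 4200 members matched in all 4 strains, 45.9% had a lower mean at 24 h in all 4, against 44.1% of all regions so matched, and 11.3% a higher one, against 12.3%.

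Few members passed the test without a replicate block in the other strains. Counts with the block are not given here for these strains. With limma H3K27ac fell at 106 members in BALB (background 0.653%) and rose at 115 (1.6%). In NOD it fell at 0 (background 0.0%) and rose at 1 (0.0566%), with unadjusted p-values below 0.05 at 1302 lower and 501 higher members. Neither edgeR nor DESeq2 was run there. In PWK it fell at 11 (background 0.0482%) and rose at 29 (0.487%), and in SPRET at 30 (0.192%) and 63 (0.994%). Leaving out 1 library gave 34 to 872 falls and 42 to 111 rises in BALB, with 872 and 63 without 24 h replicate 1. It gave 0 to 177 and 0 to 157 in NOD and 0 to 67 and 0 to 159 in PWK. SPRET had 0 to 1 and 0 to 24, with 0 rises without either 24 h library and 11 and 24 without basal replicates 1 and 2. All 106 of the BALB falls, and all 11 and 30 of those in PWK and SPRET, had a lower mean in C57 too, of which 88, 10 and 27 met the C57 fold rule. Of the 115, 29 and 63 rises, 114, 29 and 58 had a higher mean in C57. These counts were made for the members alone. Agreement with C57 over all regions called in these strains was not computed, so nothing particular to the members is read from them.

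**Figure D5:**
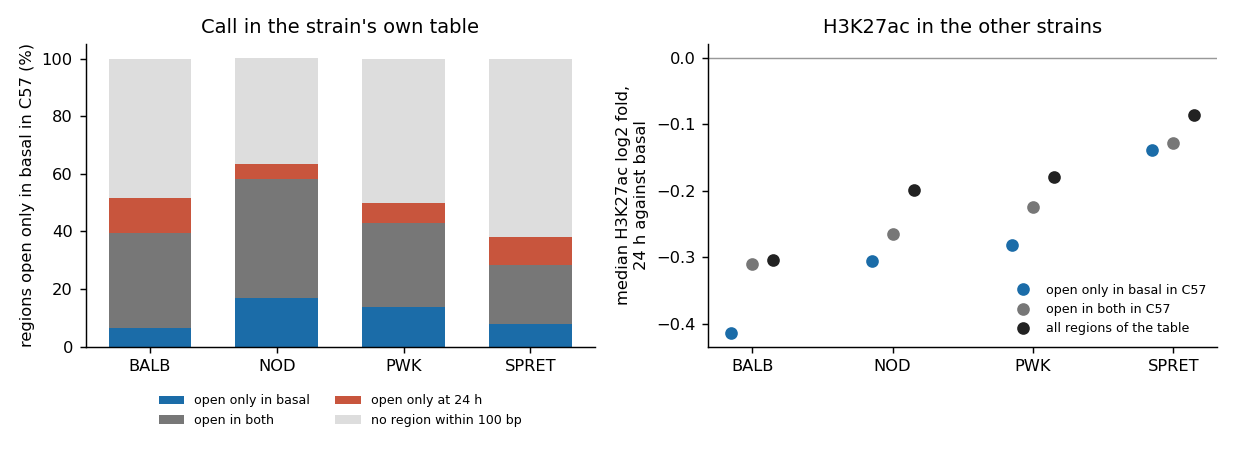
Left, percent of the 20791 members by the call in each other strain's own table, including those with no region within 100 bp. Right, median H3K27ac log2 ratio of 24 h to basal in each strain for matched members, regions open in both in C57, and all regions of the strain's table, where the members were at -0.41, -0.31, -0.28 and -0.14.

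Values of single regions in the other strains follow as a description. Regions named for the largest fall over the 4 strains, Cx3cr1 first, were chosen from these same values. Their falls and p-values are thus no independent evidence. The Cx3cr1 promoter had the lowest mean ratio over the 4 strains (log2 -3.23). H3K27ac there was 124.19 and 193.62 in BALB basal cells and 15.81 and 10.48 at 24 h (log2 -3.49, limma adjusted p 9.15e-06), and 125.51 and 357.2 against 10.85 and 48.4 in NOD (log2 -3.14, adjusted p 0.18). It was 163.09 and 227.85 against 18.18 and 11.45 in PWK (log2 -3.65, adjusted p 0.0029), and 117.12 and 96.8 against 11.46 and 22.62 in SPRET (log2 -2.65, adjusted p 0.00422). No strain's groups overlapped, and BALB, NOD and SPRET also called it open only in basal cells, where PWK called it open in both. The Sh3pxd2a intron was called open in both conditions in all 4 strains, yet its log2 ratio was -2.39 in BALB (adjusted p 0.0339), -2.41 in NOD, -2.41 in PWK and -2.68 in SPRET (adjusted p 0.00128). Its PWK level was low, at 18.88 and 15.66 against 2.02 and 2.86, where BALB had 213.11 and 177.54 against 41.42 and 31.92. A region 36.9 kb from Cap1, an actin regulator (chr4:122922476-122923476), had log2 ratios of -2.9 in BALB (adjusted p 8e-05), -2.54 in NOD, -2.22 in PWK and -1.98 in SPRET (adjusted p 0.0333).

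The Pilra promoter was open only in basal cells in BALB and NOD and had no matched region in SPRET. H3K27ac was 33.8 and 43.49 against 10.54 and 1.43 in BALB (log2 -2.89, limma adjusted p 6.01e-05), and 101.41 and 41.28 against 7.23 and 8.44 in NOD (log2 -2.9, adjusted p 0.136). The Dlx2 region was open in both in BALB, at 200.61 and 222.22 against 45.18 and 18.58 (log2 -2.82, adjusted p 0.00475), and open only in basal cells in SPRET, at 227.4 and 141.58 against 37.91 and 48.46 (log2 -2.04, adjusted p 0.0103). Among the regions with more H3K27ac at 24 h, the one near Ear14 was called open only at 24 h in BALB, with 22.05 and 33.36 against 474.4 and 205.32 (log2 3.48, adjusted p 0.00022), open in both in NOD and open only in basal cells in PWK. The Slc7a2 promoter was open in both in BALB (log2 3.59, adjusted p 0.000153), as was the Chil4 region (log2 3.07, adjusted p 3.8e-05). The calls of open chromatin at these regions differed between strains while the H3K27ac ratio had the same sign as in C57 in each matched strain named here.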

How the data were processed

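Histone marks, Pol II and transcription factors were measured by ChIP-seq in bone marrow-derived macrophages, and tag values of 95 of the 267 samples were read, beside the factor peak lists of C57. Per the paper's methods the authors mapped reads with bowtie2 to each strain's own genome, shifted the positions to mm10 and made tag directories with HOMER, and the submitters' processing notes name Bowtie2, HOMER and mm10. The deposited signal values are tags in 1000 bp around ATAC-seq peaks, normalized to 10000000 tags per library. The deposited factor peaks, with a peak score used here to rank them, were called with HOMER in each replicate and combined by the irreproducible discovery rate into 1 list per group. Columns of the authors' own comparisons were not used. Libraries of other strains for marks other than H3K27ac were read for their depth alone, and input libraries and libraries of Egr2-deleted mice and their controls were not used here.

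Every tag value was a whole multiple of 1 tag within 0.1, so whole reads could be recovered. The depth of the 95 libraries was 4691644 to 29050468 tags. Among 60 replicate pairs the chi-square per degree of freedom was 2.05 to 19.7, and none were identical. Values were tested as log2(value + 1) with limma 3.58.1 in R 4.3.3, over all regions of a table and with Benjamini-Hochberg adjustment. edgeR 4.0.16 (quasi-likelihood) and DESeq2 1.42.0 on the recovered counts, a replicate block, other pseudocounts, filters and scalings, and leaving out each library were the alternatives, and leaving out regions at 6 repeat-bearing genes was added after seeing the data. Other steps used Python 3.11.15 with pandas 2.3.3, numpy 2.4.6, scipy 1.17.1 and matplotlib 3.10.9. The model code was run on simulated counts that held no replicate effect shared between groups. A limit on recovered changes was set for edgeR, DESeq2 and the fold rule and not for limma. The run checks the code and not how the models perform on these libraries. Deviations of libraries of the same replicate number from their group means correlated in Pol II (0.19, 0.30 and 0.40). They also did in H3K27ac (0.73), H3K4me2 (0.42) and H3K4me3 (0.73), so the C57 counts at 24 h are given with and without the block.

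Annotation classes are those of the deposited tables. The nearest gene is the nearest start in GENCODE vM21, since the deposited annotation gives none, and 96.3% of 12060 promoter regions lay within 1 kb of such a start. Intervals on shares are exact binomial and cover counting error only. Regions were named by rule. For each mark these were the largest falls and rises past the fold rule without overlap of replicates. Others had the highest basal H3K27ac more than 1 kb from a gene start, within 1 kb of one, or in each gene list. The rest had the smallest limma p, the most basal factors, or the largest fall over the other strains. The members and lists were chosen with earlier results of these data known.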

Additional observations from a re-analysis of the deposited data

Results flagged for a closer look

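Among 57 sets of 4 basal Pol II libraries at the named regions, 7 held 1 library far from the other 3, where the 95% limit used passes about 1 in 20 by chance for independent sets, and these sets share the same libraries. Replicate 4 was low at 3 regions, with 380.74 normalized tags at Mpeg1 (others 564.88 to 592.14), 101.26 at Flcn (129.16 to 132.4) and 946.78 at Lgals3 (1783.91 to 1899.37). Replicate 3 was high at the Smg5 region, with 17.15 (8.02 to 9.36), and at Ccl6, with 65.92 (35.31 to 39.49). Replicate 1 had 199.67 at the Lrp12 region (7.09 to 24.07), and replicate 2 had 722.2 at Zeb2 (499.5 to 516.02).

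At 2 of 52 regions compared between strains all libraries moved in opposite directions in C57 and SPRET. H3K27ac had a log2 ratio of -0.38 in C57 and 0.62 in SPRET at Plxna1, and of -0.69 and 0.43 at Cdk6. The difference itself was not tested.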

How the results depend on the processing

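Of the recomputed summary values 121 stayed within their limits, 104 moved and 2 reversed, and the fold rule call of single named regions stayed for 62 of 62 values with a pseudocount of 5, 61 of 62 with median-ratio scaling and 264 of 275 with 1 library left out, where 5 were lost and 6 gained. The fold rule counts were as follows. H3K27ac lower, 2034, became 3705 at a fold of 2 and 951 with median-ratio scaling (1724 to 2823 with 1 library left out). H3K27ac higher, 538, became 1432 without a floor, 337 with a floor of 32 and 860 with median-ratio scaling (520 to 797). Pol II lower, 515, became 177 with a pseudocount of 5, 341 with a floor of 16 and 1073 at a fold of 2 (435 to 699), and higher, 234, became 129, 358 without a floor and 457 at a fold of 2 (195 to 391). H3K4me2 lower, 325, became 94 with a pseudocount of 5, 2916 at a fold of 2 and 4 with median-ratio scaling (220 to 3912), and higher, 45, became 20, 98 and 265, 215 without a floor and 22 with a floor of 32 (47 to 103). H3K4me3 lower, 53, became 110 without a floor and 133 at a fold of 2 (80 to 118), and higher, 99, became 60 with a pseudocount of 5, 1399 without a floor, 53 with a floor of 32 and 196 at a fold of 2 (136 to 186). Without the 6 repeat-bearing genes, an alternative chosen after seeing the data, the lower and higher counts were 2032 and 516 for H3K27ac, 515 and 234 for Pol II, 325 and 36 for H3K4me2, and 53 and 84 for H3K4me3.

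For limma calls, lower and higher, a replicate block gave 5644 and 1391 for H3K27ac, 100 and 50 for Pol II, 61 and 28 for H3K4me2 and 1359 and 742 for H3K4me3, where outside Pol II the libraries share only a number with 2 pairs each (correlations 0.73, 0.42 and 0.73). edgeR gave 3 and 31 for H3K27ac, 58 higher for Pol II, 4 and 71 for H3K4me2 and 12 and 24 for H3K4me3. DESeq2 gave 252 and 323, 172 and 138, 1 and 45, and 52 and 40. Median-ratio scaling gave 1 higher for H3K27ac, 62 higher for Pol II, and 3 and 56 for H3K4me2, and the filter 8 higher for H3K4me2. With 1 library left out the ranges were 0 to 13 and 0 to 32, 0 to 98 and 0 to 81, 0 to 9094 and 0 to 104, and 0 to 0. The causes were not tested. Over the time course the member medians ranged from -0.80 to -0.39 at 1 h, -0.30 to -0.20 at 6 h and -0.31 to -0.24 at 24 h with 1 library left out, and median-ratio scaling reversed 1 h (0.13) and 24 h (0.01). Over strains it gave -0.10 in BALB, -0.10 in NOD, -0.09 in PWK and -0.06 in SPRET, and leaving out 1 library -0.72 to -0.12, -0.37 to -0.23, -0.36 to -0.17 and -0.22 to -0.02. The replicate block in the time course gave 4589 falls and 752 rises at 1 h, 2123 and 1146 at 6 h, and 1044 and 548 at 24 h. Over all regions of that table these were 17121 and 2974, 5298 and 5353, and 2792 and 3334. Any factor covered 67.1% of members in basal cells, 72.9% over 1000 bp and 47.2% with the better-scoring part of each list, and at 24 h 77.6, 82.5 and 56.9%, or 67.2% at equal list length. With 2 libraries per histone group, depth and replicates limit what single regions can show.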
